A study of Mus musculus with 13 samples.

Results

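The comparison set mRNA libraries from 20000 cells against mRNA libraries from 10000 cells, paired within experiments 1 and 2. It takes up 4 of the 13 samples of the series and 4 of its 5 mRNA libraries, with 2 libraries a group. Of 24470 genes in the count table, 12523 passed the filter on low counts and were tested. All libraries came from E14, an established mouse embryonic stem cell line of 129/Ola background, grown in serum with leukemia inhibitory factor (LIF), with no treatment or genetic change named. By the labels the groups differ only in how many cells went into a library. The 2 experiments were done on different days, and each contributed 1 library from 10000 and 1 from 20000 cells. In the low-input protocol, cells were opened with a mild detergent and their accessible DNA was cut by the transposase Tn5, after which polyadenylated RNA was taken from the lysate on oligo-dT beads. The RNA was copied on the beads and tagmented in turn. Another mRNA library, from 5000 cells of experiment 2, had no replicate and stayed out of the test. Its values stand beside the others as a description.

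Embryonic stem cells hold a self-renewing state that rests on transcription factors such as Pou5f1 (Oct4), Sox2 and Nanog, and LIF in the medium helps to keep it. Their mRNA is rich in transcripts of ribosomal proteins, glycolytic enzymes and the mitochondrial genome. When the number of cells going into a library is lowered, fewer molecules of each transcript are captured and copied, so that rare transcripts are counted with more scatter than abundant ones. The design asks how far the same cells give the same profile at different inputs.

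Total counts were 13727122 and 15506892 in the libraries from 10000 cells of experiments 1 and 2, 14944870 and 20426252 in those from 20000 cells, and 16762472 in the library from 5000 cells. At these depths 3 counts correspond to 0.147 to 0.219 counts per 1000000 counts of the library (CPM). The pluripotency factors, which define the cells, summed to 3191 and 3196 CPM at 10000 cells and to 3276 and 3217 CPM at 20000 cells. Over all genes tested, the experiments differed from each other more than the inputs did. The log2 ratio between experiments had an SD of 0.72 at 10000 and 0.59 at 20000 cells. Between inputs it was 0.51 in experiment 1 and 0.42 in experiment 2. Not every list followed this. The pluripotency sum moved more with input in experiment 1, as did the trophoblast sum (8.23 and 11.2 CPM, against 10.5 and 11.7 CPM in experiment 2). Of 57 markers of 6 other cell types or states (primitive endoderm, mesoderm, neural, trophoblast, fibroblast and two-cell-like cells), 25 passed the filter and 0 had an unadjusted p under 0.05 in edgeR's paired fit (0 also after adjustment). The summed level of the fibroblast list was 303.9 CPM at 10000 and 327.5 CPM at 20000 cells in experiment 1, against 501.6 and 529.5 CPM in experiment 2. Most of that gap was Vim, at 108.6 and 116.3 CPM in experiment 1 and 296.6 and 316.7 CPM in experiment 2. Thy1 went the other way, at 29.2 and 33.9 against 6.77 and 7.05 CPM, so the sum does not describe the list as a whole. The two-cell-like list summed to 15.1 and 11.0 CPM in experiment 1 and to 2.97 and 0.392 CPM in experiment 2. Zscan4f of that list had a count of 0 in every library of experiment 2, which allows 3 counts. The paired test and the ratios of 20000 to 10000 cells were therefore taken within an experiment, while fits without the block and statements on overlap of the groups are over both experiments.

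Few transcripts were called as different in level between the inputs, which with 2 pairs does not show that few differed. In edgeR's quasi-likelihood test with the experiment as a block, 4 genes were lower at 20000 cells at a Benjamini-Hochberg adjusted p under 0.05, which is 0.0319% of the genes tested. The number of genes higher was 0, or 0% of the genes tested. Without adjustment, 267 genes (2.13%) were higher and 299 (2.39%) lower at p under 0.05. A change of at least 1.5-fold in the same direction in both experiments was seen for 126 genes upwards (1.01%) and 210 downwards (1.68%), while 354 genes (2.83%) moved at least 1.5-fold in opposite directions. Whatever the size, 3200 genes (25.6%) were higher in both experiments and 3044 (24.3%) lower in both. At a mean of 10 CPM or more these were 1847 and 1493 of 6541 genes.

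How closely a gene stayed in place was described by 2 measures. In 4985 genes (39.8%) the 95% interval of the fitted fold change lay within 1.5-fold on both sides, and these are called held below. The fit averages the experiments, so opposite moves cancel in it, and 41 genes were held although a ratio passed 1.5-fold in at least 1 experiment. Sesn2, for example, was held with log2 ratios of -0.91 and 0.63. The other measure, added after the data were seen, asks that the ratio of each experiment lie within 1.5-fold, and 9032 genes (72.1%) met it. The 4 libraries leave 1 residual degree of freedom in the paired fit, and the spread of each gene is drawn largely from all genes (prior degrees of freedom 83.8). An exact permutation test of a single gene over 2 pairs cannot go below p = 0.5, so the calls rest on that shared spread.

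Over all genes the ratios of the experiments showed a correlation near 0. The log2 ratio of 20000 to 10000 cells, computed in each experiment as log2(CPM + 0.5) after TMM scaling, had a median of 0.0052 in experiment 1 and 0.0060 in experiment 2 over the 12523 genes. Its Pearson correlation between the experiments was -0.0051 across these genes, which share the table and the scaling but no library. The ratios had the same sign in 49.9% of genes. Over the 6541 genes averaging 10 CPM or more the correlation was 0.010 and the share of equal signs 51.1%. Smaller groups of genes varied around this: the 157 genes of 1000 CPM or more had r = -0.19 with 38.2% equal signs, the 86 ribosomal protein genes r = -0.25 and the 13 mitochondrially encoded mRNAs, ATP8 among them, r = 0.49. These values are descriptions across genes, which are not independent replicates. The difference between the experiments, by contrast, was shared between the inputs: its values at 10000 and at 20000 cells correlated with r = 0.506 over the 12523 genes.

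**Figure D1:**
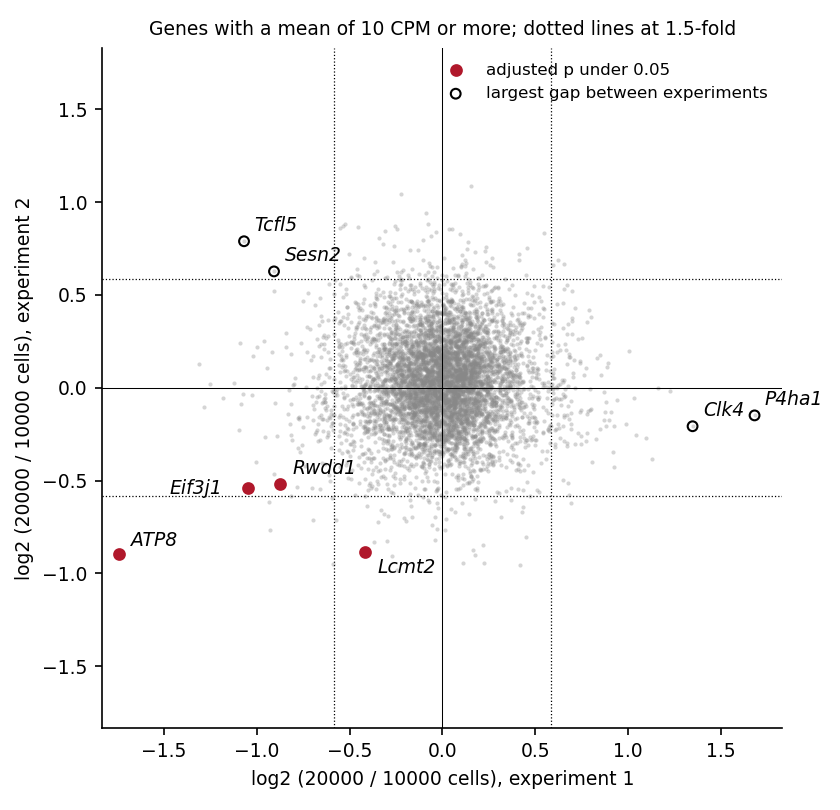
Log2 ratio of 20000 to 10000 cells in experiment 1 (x axis) and experiment 2 (y axis) for the 6541 genes averaging 10 CPM or more, 1 point a gene. The cloud shows no slope (r = 0.010); the 4 called genes, in red, lie at the lower left, and the 4 genes with the largest gap between experiments are circled.

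The gene with the strongest evidence was ATP8, the mitochondrially encoded A6L subunit of ATP synthase (mm10 chromosome M, 7766 to 7969). ATP8 had 55.2 and 33.7 CPM at 10000 cells in experiments 1 and 2, and 16.2 and 18.2 CPM at 20000 cells. Both libraries from 20000 cells thus lay below both from 10000 cells, and the library from 5000 cells (16.6 CPM) lay with those from 20000. The fitted log2 fold change was -1.34 ± 0.18 (SE) with an adjusted p of 1.63e-06. Groups that do not overlap are given here and below as a description only. With 2 libraries a group, an exact unpaired permutation test cannot go below p = 0.333. These genes were also picked by small p from the same libraries, and the share of all genes without overlap was not counted. ATP8 shares 43 bp, or 21.1% of its length, with ATP6 on the same strand, and how reads in the shared stretch were counted is not given in the sources used here. ATP6, the neighbouring subunit, had 147.7 and 196.2 CPM at 10000 and 171.0 and 184.0 CPM at 20000 cells, with ratios of 0.20 and -0.12 on the log2 scale. Because the libraries are bulk, fewer cells with a transcript and less of it per cell cannot be told apart here or below.

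The other called genes are nuclear. Rwdd1, which encodes a protein that binds the GTPase Drg2 (chromosome 10, 33996555 to 34019616), had 325.0 and 242.4 CPM at 10000 cells and 177.4 and 172.3 CPM at 20000 cells. The log2 fold change of Rwdd1 was -0.70 ± 0.13 (adjusted p 0.00279). The groups did not overlap, and the library from 5000 cells, at 261.6 CPM, lay within the range of the libraries from 10000 cells. Lcmt2, an enzyme of wybutosine synthesis in phenylalanine tRNA (chromosome 2, 121137292 to 121140698), had 83.2 and 87.6 CPM at 10000 cells and 62.4 and 48.1 CPM at 20000 cells. The log2 fold change of Lcmt2 was -0.66 ± 0.14 (adjusted p 0.0451), again with no overlap between the groups, and the library from 5000 cells held 66.0 CPM. Lcmt2 overlaps Adal, which lies antisense to it, over 271 bp. Adal is the rarer of the pair in reads, with a mean of 10.9 CPM.

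Eif3j1, a loosely bound subunit of translation initiation factor eIF3 (chromosome 2, 122028580 to 122053632), had 55.3 and 30.3 CPM at 10000 cells and 26.6 and 21.1 CPM at 20000 cells. The groups did not overlap, but most of the difference lay in experiment 1, with log2 ratios of -1.05 and -0.54. The fitted log2 fold change was -0.81 ± 0.17 (adjusted p 0.0417), and the library from 5000 cells held 28.0 CPM, below both libraries from 10000 cells. Eif3j2, a near-identical copy elsewhere in the genome, had 33.1 and 29.5 CPM at 10000 and 31.4 and 21.4 CPM at 20000 cells. Reads of the 2 genes may have been split or dropped in counting, so Eif3j1 is uncertain as a single gene. Their sum was 88.4 and 59.8 CPM at 10000 and 58.0 and 42.5 CPM at 20000 cells, with 58.9 CPM at 5000 cells. The nearest values of the summed groups, 59.8 and 58.0 CPM, rest on 928 and 867 counts and lie close together, so the sum shows a smaller separation than Eif3j1 alone.

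The bases upstream of Eif3j1 and Lcmt2 are shown because these start sites were also read by the ATAC libraries of the same cell numbers and experiments. Each is the 250 bases before the start of transcription on the gene's own strand, from RefSeq (GRCm38.p6, the assembly of mm10). The capitals mark the GC box GGGCGG, the core of the site bound by Sp1-type factors, and its reverse CCGCCC, searched on both strands with overlapping matches counted.
Eif3j1, chr2:122028330-122028579, plus strand: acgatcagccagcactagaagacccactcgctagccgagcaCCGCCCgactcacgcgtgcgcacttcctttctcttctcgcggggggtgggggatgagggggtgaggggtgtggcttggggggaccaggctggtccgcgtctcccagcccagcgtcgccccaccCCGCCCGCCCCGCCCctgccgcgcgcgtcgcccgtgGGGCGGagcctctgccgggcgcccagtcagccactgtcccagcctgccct
Lcmt2, chr2:121140699-121140948, minus strand: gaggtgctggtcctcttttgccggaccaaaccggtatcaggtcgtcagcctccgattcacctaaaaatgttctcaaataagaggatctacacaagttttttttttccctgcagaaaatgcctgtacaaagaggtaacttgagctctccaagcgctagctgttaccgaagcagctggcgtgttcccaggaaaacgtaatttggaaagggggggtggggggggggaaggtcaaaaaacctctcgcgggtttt
The Eif3j1 window held 5 matches, of which 3 overlap one another, with 73.6% G or C. The Lcmt2 window held 0 matches, with 49.6% G or C. Of 32851 RefSeq promoter windows of this length, 32.7% held the motif. Among the 5325 promoters matched to genes of 10 CPM or more, the level of both genes, the share was 62.6%. A deposited ATAC peak lay within 1000 bp of the start of Eif3j1 in all 4 libraries from 10000 and 20000 cells, and of Lcmt2 in 3 of 4, the exception being 10000 cells of experiment 1. Rwdd1 had such a peak in 4 of 4. Among genes of 10 CPM or more, 54.8% had a peak in all 4 libraries. The share was 61.6% and 76.7% at 10000 cells of experiments 1 and 2, and 71.0% and 88.7% at 20000 cells. The lists thus differ in how many starts they cover, and whether accessibility goes with the lower levels was not tested.

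Just outside the threshold stood ND5, a mitochondrially encoded subunit of respiratory complex I, with 1146 and 685.1 CPM at 10000 and 619.1 and 583.8 CPM at 20000 cells. Its log2 fold change was -0.58 ± 0.13 and its adjusted p 0.0647. The libraries from 20000 cells both lay below those from 10000, yet the library from 5000 cells was lower still at 535.1 CPM. Fkbp3, a nuclear peptidyl-prolyl isomerase, came next with a log2 fold change of -0.53 ± 0.13 and an adjusted p of 0.142. It had 655.3 CPM at 5000 cells, 481.2 and 480.0 CPM at 10000 cells and 285.9 and 394.8 CPM at 20000 cells, so that in experiment 2 its level was lower at each larger input. Nol7, a nucleolar protein, had 357.8 and 277.0 CPM at 10000 and 252.1 and 201.6 CPM at 20000 cells, and Usp8, a deubiquitinase of the endosome, 48.7 and 31.3 against 28.2 and 21.9 CPM. Neither passed the paired edgeR test, at adjusted p of 0.216 and 0.236. With each library left out in turn, in a fit without the block, the log2 fold change of Fkbp3 ran from -0.76 to -0.29, the latter without 20000 cells of experiment 1. Nol7 ran from -0.66 to -0.30 and Usp8 from -0.96 to -0.34, both nearest to 0 without 10000 cells of experiment 1.

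Other settings change these calls. Without the block, edgeR called 0 genes (101 at unadjusted p under 0.05), as it did with library size in place of TMM (472). DESeq2 called 2 genes, ATP8 and Rwdd1. The limma voom fit called 7 genes, all lower, which were the 4 with ND5 (adjusted p 0.00124), Fkbp3 (0.00849) and Nol7 (0.0356). On the genes of at least 10 CPM edgeR called 14. In that fit the prior degrees of freedom were infinite, so that a gene's own spread had no weight and its calls, Unc45a included, rest on the shared spread alone. These included the same 7, with adjusted p of 0.00115 for ND5, 0.0027 for Fkbp3 and 0.00675 for Nol7. Of the rest, Acp1, Anp32b, Cbx1, Hmgb2, Ndufaf2 and Sarnp (named after their values were seen) were lower and Unc45a was the only one higher. With library size alone, the prior degrees of freedom were 12.3 in place of 83.8, while the log2 fold changes stood at -1.32 for ATP8, -0.68 for Rwdd1, -0.79 for Eif3j1 and -0.64 for Lcmt2.

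Among genes higher at 20000 cells, none passed the paired edgeR test over all genes, and the 8 with the smallest p are given as values. Itgb7, an integrin beta subunit, had 32.9 and 14.8 CPM at 10000 and 48.7 and 27.3 CPM at 20000 cells, a log2 fold change of 0.70 ± 0.17 (adjusted p 0.216). The experiments differed for Itgb7 by as much as the inputs, and the groups overlapped. With each library left out in turn, in a fit without the block, its log2 fold change ran from 0.19 to 1.35. Unc45a, a chaperone of myosin, had 51.9 and 52.9 CPM at 10000 and 69.5 and 87.1 CPM at 20000 cells, with no overlap and 53.5 CPM at 5000 cells. Pwp2, a component of the small-subunit processome that builds the small ribosomal subunit, had 45.9 and 41.9 against 69.0 and 62.5 CPM, also with no overlap and with 38.4 CPM at 5000 cells. The adjusted p was 0.274 for Unc45a and 0.289 for Pwp2. On the genes of at least 10 CPM, where the spread was wholly shared, Unc45a passed, at an adjusted p of 0.0402 and a log2 fold change of 0.54. The other 5 were Trappc12 of a vesicle tethering complex, the necroptosis kinase Ripk3, the mRNA export factor Thoc5, the proline synthesis enzyme Aldh18a1 and the mitochondrial protease Lonp1. Their log2 fold changes ran from 0.40 (Lonp1) to 0.68 (Ripk3), and their adjusted p from 0.322 (Trappc12) to 0.623 (Aldh18a1 and Lonp1). With a library left out, Aldh18a1 ran from 0.12 to 1.24 and Lonp1 from 0.17 to 0.63, and all 8 genes stayed above 0.

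**Figure D2:**
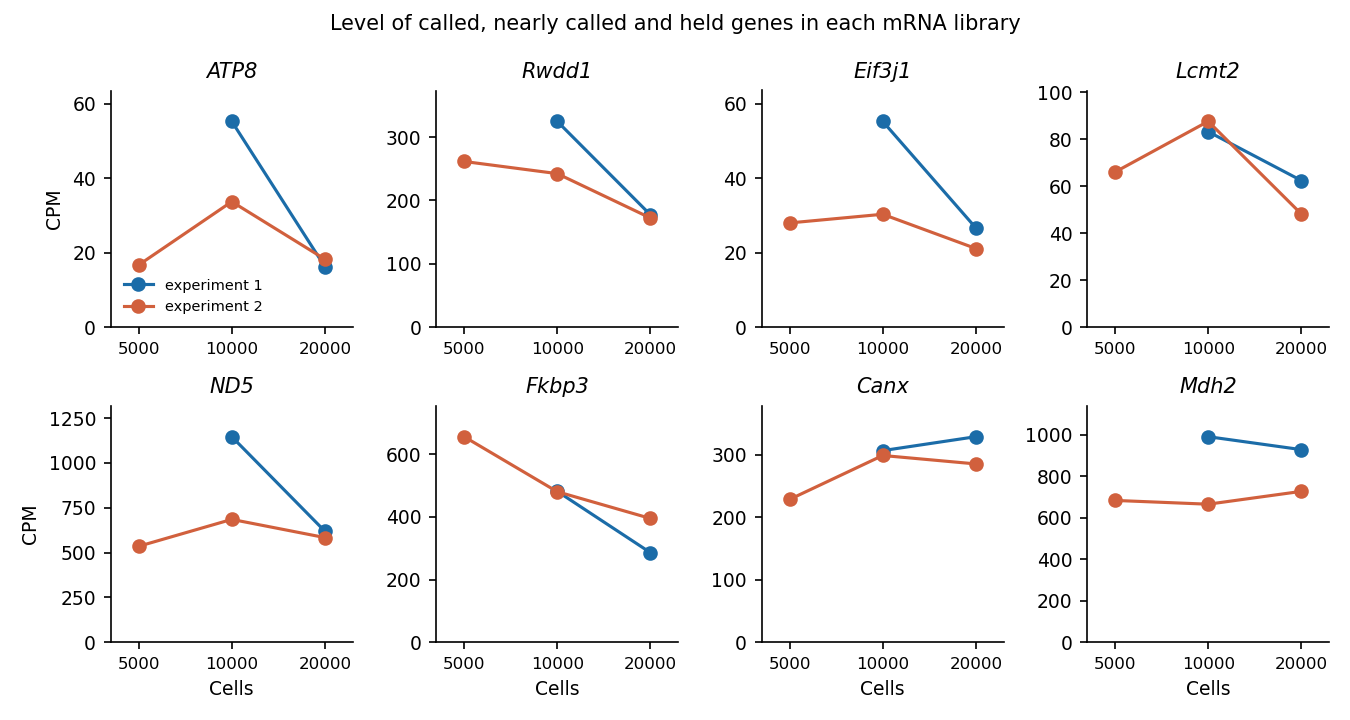
Level in CPM (y axis, from 0) of 8 genes in the 5 mRNA libraries by number of cells (x axis, not to scale), with 1 point a library and lines joining libraries of an experiment. ATP8, Rwdd1, Eif3j1 and Lcmt2 are the called genes, ND5 and Fkbp3 the next by adjusted p, and Canx and Mdh2 the genes held most tightly.

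The 8 genes held most tightly include transcripts of the secretory pathway, mitochondria, splicing and translation. Canx, the lectin chaperone calnexin of the endoplasmic reticulum, had 306.8 and 299.0 CPM at 10000 and 329.1 and 285.5 CPM at 20000 cells. The 95% interval of its log2 fold change ran from -0.25 to 0.25. Mdh2, the mitochondrial malate dehydrogenase, had 990.2 and 665.1 against 927.8 and 726.9 CPM, so that it differed between the experiments and not beyond 0.10 between the inputs on the log2 scale. Srsf3, a splicing factor, had 346.5 and 431.4 against 353.2 and 432.8 CPM. The remaining 5 were the imprinted gene Phlda2, the Sm protein gene Snrpd2, the ATP synthase subunit gene Atp5j, Chchd2 of the mitochondrial intermembrane space and the elongation factor subunit gene Eef1d. In all 8 genes the interval stayed within 0.251 of 0 on the log2 scale. These genes were found by the width and place of their intervals, and the 2 experiments moved in opposite directions in each, by up to 0.15.

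The share of genes held was larger at higher expression levels, which is first a matter of precision. The width of an interval follows the counts through a spread shared by all genes, so a rare gene could hardly be held whatever its ratios were. The median half-width of the interval was 2.3 on the log2 scale under 1 CPM and 0.25 at 1000 CPM or more. Levels are in CPM, which count reads and are not divided by transcript length. Of the 951 tested genes under 1 CPM, 0% were held within 1.5-fold, as were 0.875% of the 5031 genes from 1 to 10 CPM. The share was 69.4% of 5137 genes from 10 to 100 CPM, 97.8% of 1247 genes from 100 to 1000 CPM and 100% of the 157 genes at 1000 CPM or more. By the ratios of both experiments the shares were 31.0%, 52.0%, 92.1%, 98.6% and 100% from the lowest level to the highest. The spread of the ratio across genes narrowed alongside. Its SD was 0.84 in experiment 1 and 0.72 in experiment 2 under 1 CPM, 0.64 and 0.51 from 1 to 10 CPM, and 0.29 and 0.26 from 10 to 100 CPM. It was 0.18 in both experiments from 100 to 1000 CPM (0.179 and 0.185). At 1000 CPM or more it was 0.13 and 0.18.

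Poisson counting, which treats each read as an independent molecule, gives on the same scale an SD of 0.34 and 0.32 under 1 CPM, 0.11 and 0.10 from 10 to 100 CPM and 0.012 and 0.011 at 1000 CPM or more. The observed SD was larger at every level, and at 1000 CPM or more it was over 10 times the counting SD in both experiments. Reads copied from 1 molecule are not independent, and what makes up the rest of the spread was not tested. The spread between inputs stayed below the spread between experiments at equal input from 1 CPM upwards. From 10 to 100 CPM, for example, the ratio of experiment 2 to experiment 1 had an SD of 0.50 at 10000 and 0.45 at 20000 cells. Under 1 CPM the SD between experiments was 1.04 at 10000 cells and 0.75 at 20000 cells, and the latter lay below the 0.84 between inputs in experiment 1.

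**Figure D3:**
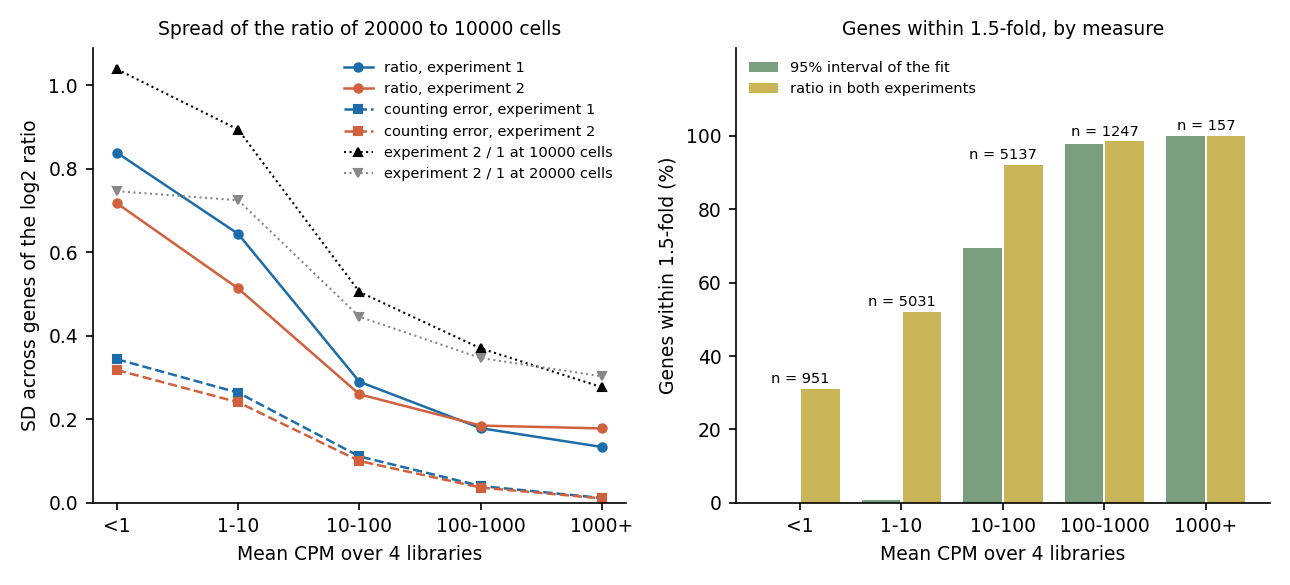
Left, SD across genes of the log2 ratio of 20000 to 10000 cells in each experiment (solid), the SD that Poisson counting alone would give (dashed; reads taken as independent) and the SD of experiment 2 over experiment 1 at equal input (dotted), by mean CPM. Right, percent of tested genes within 1.5-fold by the 95% interval of the fit (green) and by the ratio of both experiments (yellow), which go from 0% and 31.0% under 1 CPM to 100% at 1000 CPM or more.

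The genes with a change of at least 1.5-fold in both experiments were nearly all rare. Of the 126 higher in both, 42 had under 1 CPM, 81 had 1 to 10 CPM and 3 had more, and of the 210 lower in both the numbers were 78, 125 and 7. Of the 354 that moved in opposite directions, 4 had at least 10 CPM. No gene at 100 CPM or more changed at least 1.5-fold in both experiments in either manner.

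Single genes of each level give examples. Under 1 CPM the highest means belonged to Ankrd52, Scml2 and Tap1, and the interval of their log2 fold change reached 1.74 to 2.37 from 0. Tap1, a peptide transporter of antigen presentation, had 1.38 and 0.322 CPM at 10000 and 2.14 and 0.147 CPM at 20000 cells. From 10 to 100 CPM, Fkbp8, an anchor of Bcl2 at mitochondria, had 85.2 and 100.7 against 76.9 and 136.8 CPM, with an interval from -0.14 to 0.41. At the top level Rps12 had 12585 and 13254 against 13600 and 11499 CPM, and Rpl41 had 11444 and 13301 against 12485 and 12472 CPM. Both encode proteins of the cytosolic ribosome. The log2 fold change of Rps12 was -0.064 ± 0.13 and that of Rpl41 -0.0013 ± 0.13.

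The largest gaps between experiments at 10 CPM or more fell on 4 genes. P4ha1, the catalytic subunit of collagen prolyl 4-hydroxylase, had 3.64 CPM in the library from 10000 cells of experiment 1 and 12.9 to 15.5 CPM in the other 3, and its log2 ratios were 1.68 and -0.15. Clk4, a kinase of splicing factors, had 4.88 CPM in that same library and 11.2 to 13.3 CPM in the others, with ratios of 1.35 and -0.21. Tcfl5, a basic helix-loop-helix factor, had 27.1 CPM there, against 7.67 CPM in its counterpart of experiment 2 and 12.7 and 13.9 CPM at 20000 cells. Sesn2, a stress-induced regulator of mTORC1, had 41.3 CPM there, against 13.9, 21.9 and 22.1 CPM. In each of the 4 genes the library from 10000 cells of experiment 1 lay outside the range of the other 3, low for P4ha1 and Clk4 and high for Tcfl5 and Sesn2. The same library was the highest of the 4 for ATP8, Rwdd1, Eif3j1 and ND5, but not for Lcmt2. It was also the highest for Nol7, Usp8 and, narrowly, Fkbp3 (481.2 against 480.0 CPM at 10000 cells of experiment 2). Its part in those calls was not tested beyond leaving it out of the unpaired fit, where ATP8 stood at -0.98, Rwdd1 at -0.48, Eif3j1 at -0.36, ND5 at -0.20 and Lcmt2 at -0.68. The unpaired fit called 0 genes with all 4 libraries too (101 at unadjusted p under 0.05), so its p-values tell nothing of this library.

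Median ratios by gene length lay within 0.068 of 0 on the log2 scale in both experiments. Length here is the genomic span, introns included, from the mm10 coordinates of the table. In experiment 1 the median log2 ratio lay between -0.0040 and 0.017 in all 5 classes of span. In experiment 2 it was -0.056 for 505 genes under 2 kb, 0.041 for 3025 genes of 2 to 10 kb, 0.023 for 4266 genes of 10 to 30 kb, -0.018 for 3385 genes of 30 to 100 kb and -0.068 for 1342 genes of 100 kb or more. The lower medians at both ends in experiment 2 had no counterpart in experiment 1. The quartiles spanned from -0.28 to 0.33 in experiment 1 and from -0.36 to 0.16 in experiment 2 for the longest genes, which describes single genes and not the precision of a median. Whether the medians of the classes differ was not tested.

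Among the short genes, 2 were higher and 15 lower at unadjusted p under 0.05, out of 505. Over all genes tested the shares were 2.13% and 2.39%. At 10 CPM or more the counts were 0 higher and 7 lower of 232 genes under 2 kb, with medians of 0.0017 and -0.055 in the experiments. The called gene of this class was ATP8. Of the 232 genes, 17 encode ribosomal proteins, and the medians of the other 215 were -0.0078 and -0.043, with the same 7 lower. Rps29 and Rps28, short ribosomal protein genes with high means, had log2 ratios of 0.20 and 0.028 in experiment 1 and of -0.29 and -0.39 in experiment 2.

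The held share differed with span, and so did the level. The held share was 39.8% under 2 kb, 46.0% from 2 to 10 kb, 43.4% from 10 to 30 kb, 36.9% from 30 to 100 kb and 21.98% at 100 kb or more, and the median of the mean CPM in these classes was 7.66, 15.2, 13.3, 10.4 and 5.17. Within 10 to 100 CPM the held share still ran down from 73.8% under 2 kb to 62.9% at 100 kb or more, where the median level also ran down from 31.3 to 21.1 CPM. Within 100 to 1000 CPM it lay between 96.3% and 100% for every class. By the ratios of both experiments the share within 10 to 100 CPM lay between 91.4% and 92.9% in the 5 classes of span. The long genes with the highest means, Rbpms, Atxn10 and Itpk1, were all held. Rbpms, an RNA-binding protein spanning 147220 bp, had 361.3 and 443.1 CPM at 10000 and 326.7 and 434.5 CPM at 20000 cells.

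**Figure D4:**
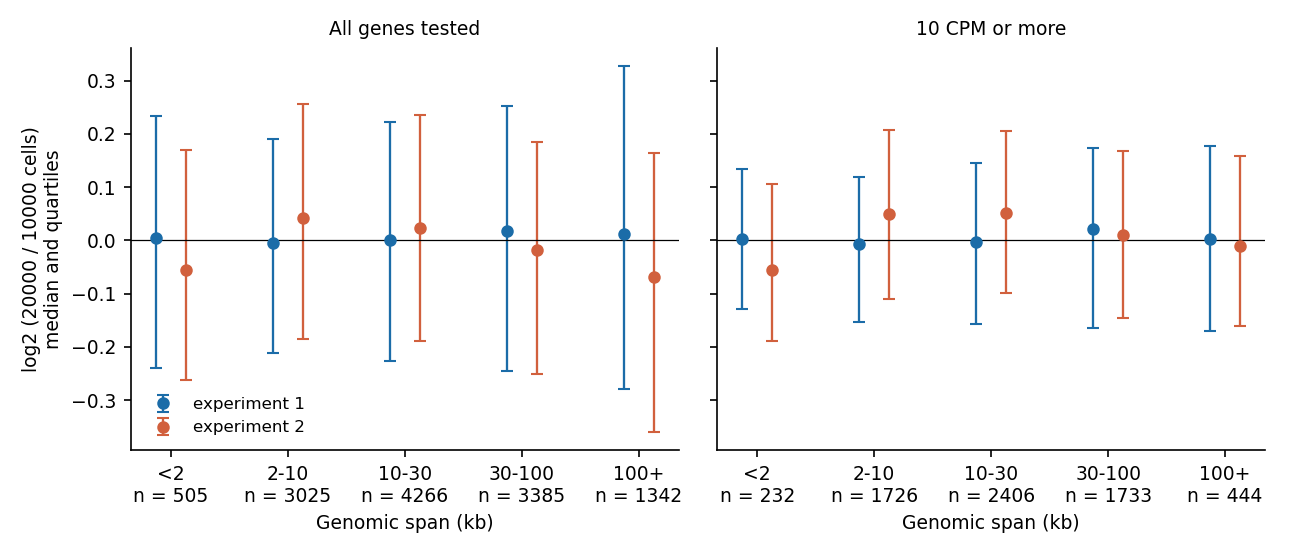
Median log2 ratio of 20000 to 10000 cells (points) with the lower and upper quartile of genes (bars) by genomic span in kb, for experiments 1 and 2, over all genes tested (left) and those averaging 10 CPM or more (right). In experiment 1 the medians stay between -0.0040 and 0.017 over all genes tested, and in experiment 2 they are lowest for the shortest and the longest genes, at -0.056 and -0.068.

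Gene class was taken from RefSeq. The 12036 protein-coding genes tested had median log2 ratios of 0.0052 and 0.011 in experiments 1 and 2, and all 4 called genes belong to this class. The 341 long noncoding RNA (lncRNA) genes had medians of 0.061 and -0.16, opposite in sign. At 10 CPM or more the 66 lncRNA genes had medians of 0.079 and -0.21, with 4 higher and 18 lower in both experiments, against 1847 and 1493 of all 6541 genes of that level. Their held share was 78.8%, against 75.5% of the 6445 protein-coding genes of that level. The lncRNAs with the highest means were 2410006H16Rik, Gas5 and 1110038B12Rik. Gas5, a spliced host of small nucleolar RNAs, had 485.8 and 619.0 CPM at 10000 and 584.6 and 489.3 CPM at 20000 cells, and its ratios were 0.26 and -0.37.

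Host genes of small nucleolar RNAs had medians of the same signs as the lncRNA class. All 15 genes of the host list were tested, with medians of 0.071 and -0.28, and 14 were held. The second was the lowest median of any list of at least 10 tested genes in either experiment. Their summed level was 2142 CPM at 10000 and 2282 CPM at 20000 cells in experiment 1, and 2510 and 2054 CPM in experiment 2, with 2506 CPM at 5000 cells. Snhg6 had ratios of 0.089 and -0.24, Snhg1 of -0.029 and -0.20 and Snhg8 of 0.085 and -0.48. Among the 66 lncRNA genes of at least 10 CPM, the 14 on the host list had medians of 0.051 and -0.29 and the 52 others of 0.10 and -0.19, so that the opposite signs were found with and without the hosts.

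Few genes of the remaining classes were counted well. Of 358 transcribed pseudogenes counted, 96 were tested, with medians of -0.028 and -0.12, and of 123 small nucleolar RNA genes 28 were tested, with medians of -0.057 and -0.20. Only 1 of these 28, Snora65, reached 10 CPM. It had 18.6 and 11.3 CPM at 10000 and 14.9 and 9.11 CPM at 20000 cells. Snora33, which lies within Rps12, had 1.46 and 16.6 CPM at 10000 and 1.81 and 11.7 CPM at 20000 cells, so it followed the experiment. Of 1185 miRNA genes 13 were tested, with medians of -0.19 and 0.056. Mir692-2 had 842.6 and 630.4 against 742.3 and 872.4 CPM. Reads counted at a small RNA gene in a polyadenylated library may belong to the transcript that holds it, which the counts cannot tell apart.

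Of the 28 gene lists, 22 had at least 10 tested genes, and over these the median of the fitted log2 fold change ran from -0.099 to 0.13. The 6 shorter lists, of markers of other cell types, had 2 to 7 tested genes each. Their medians ran from -1.0 for the 3 two-cell-like markers to 0.48 for the 2 mesoderm markers, with median levels of 1.3 CPM in both lists. Of the 22 longer lists, the medians of 12 had opposite signs in the experiments, 6 were higher in both and 4 lower in both. Beside these stand the medians of all genes, 0.0052 and 0.0060. Counts of members higher or lower in both experiments stand beside 25.6% and 24.3% of all genes. Counts of held genes follow the level of a list: 75.5% of all genes of 10 CPM or more were held, and 97.8% from 100 to 1000 CPM.

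**Figure D5:**
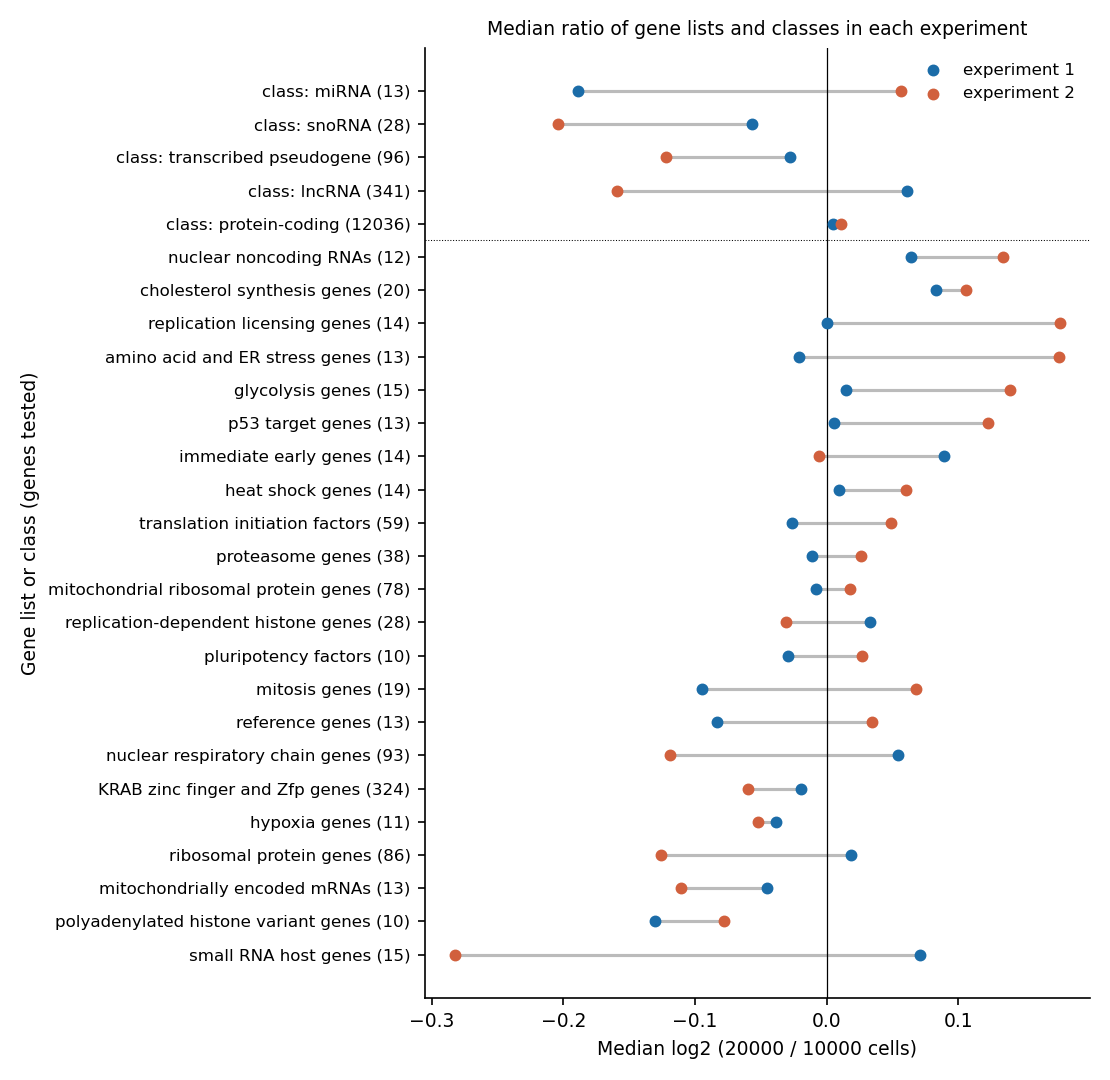
Median log2 ratio of 20000 to 10000 cells in experiment 1 and experiment 2 for the 22 gene lists with at least 10 tested genes and, above the dotted line, for 5 RefSeq classes, with the number of genes tested in brackets. The medians lie on opposite sides of 0 for 12 of the 22 lists; small RNA host genes are farthest apart, at 0.071 and -0.28.

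The pluripotency factors were held in 8 of 10 cases, at a median level of 175.4 CPM, with medians of -0.030 and 0.027 and 0 genes at unadjusted p under 0.05. Dppa5a had 1469 and 1652 CPM at 10000 and 1673 and 1521 CPM at 20000 cells. Zfp42 (Rex1) had 343.8 and 430.0 against 320.3 and 432.4 CPM, and Nanog had 226.6 and 228.5 against 250.7 and 220.8 CPM. The 2 not held, Tbx3 and Tfcp2l1, had intervals from -0.088 to 0.69 and from -0.73 to 0.16 and are named after their values were seen. Pou5f1 is counted as held, though its level was 229.5 and 154.8 CPM at 10000 and 150.8 and 233.2 CPM at 20000 cells, with ratios of -0.61 and 0.56. Pou5f1 has near-identical pseudogenes, so its count is uncertain, and it is named here after its values were seen, as the rule for lists names the 4 members with the highest means.

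Mitochondrially encoded mRNAs had medians below 0 in both experiments. All 13 were tested, with medians of -0.045 and -0.11, and 7 were lower in both experiments against 2 higher in both, where all genes give 24.3% and 25.6%. Besides ATP8, ND5 and ND6 were lower at unadjusted p under 0.05, as were 2.39% of all genes, and 10 of the 13 were held. ND1, with the highest mean, had 9399 and 7288 CPM at 10000 and 8632 and 7231 CPM at 20000 cells. CYTB had 4546 and 5203 against 4423 and 5269 CPM. The sum over the 13 was 22169 and 19837 CPM at 10000 and 20179 and 19057 CPM at 20000 cells, and 16151 CPM at 5000 cells, so the smallest input had the lowest sum. ND6 lies antisense to ND5 with an overlap of 14 bp, and ATP8 overlaps ATP6, so these genes are not fully separate in the counts.

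Nuclear genes of the respiratory chain had medians of opposite sign. The 93 nuclear respiratory chain genes tested had medians of 0.054 and -0.12 and 86 were held. Atp5b, the beta subunit of ATP synthase, had 2977 and 3176 CPM at 10000 and 3450 and 3679 CPM at 20000 cells (p 0.126 unadjusted). Cox6c had 3671 and 2908 against 3936 and 2463 CPM. The 78 mitochondrial ribosomal protein genes had medians of -0.0081 and 0.018, with 74 held and 21 in each direction in both experiments.

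Ribosomal protein genes, which make up the largest share of reads of any list here, had medians of opposite sign. Their 86 genes summed to 317373 CPM at 10000 and 321473 CPM at 20000 cells in experiment 1, and to 340553 and 320010 CPM in experiment 2. The medians were 0.018 and -0.13, with 84 of the 86 held, 8 higher and 23 lower in both experiments, and 3 lower at unadjusted p under 0.05. Over all genes 24.3% were lower in both and 2.39% lower at unadjusted p under 0.05, so both counts of lower genes lie near the general share. In the top expression level 73 of 157 genes are ribosomal protein genes, with medians of 0.028 and -0.13, and the 84 others had -0.00033 and -0.053. Of 59 translation initiation factors 43 were held, with medians of -0.026 and 0.049. Eif3i, Eif3k and Eif3d, subunits of the same factor as Eif3j1, had log2 ratios of at most 0.19 on either side of 0 in both experiments. The 38 proteasome genes, of which 35 were held, had medians of -0.011 and 0.026.

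The lists of glycolysis and the cell cycle had medians above 0 in experiment 2. Of 15 glycolysis genes 14 were held, with medians of 0.014 and 0.14, 6 higher in both experiments and 0 lower in both. Ldha had 3503 and 3721 CPM at 10000 and 3198 and 4277 CPM at 20000 cells. Eno1 had 1871 and 1625 against 1938 and 2282 CPM, and Pkm had 2109 and 1867 against 2234 and 2478 CPM. Gapdh, often used as a reference gene and rich in near-identical pseudogenes, had 1867 and 2019 against 1416 and 2110 CPM. The 1 gene of the list with an unadjusted p under 0.05 was Pfkl, at a log2 fold change of 0.38. The 14 replication licensing genes, which load the MCM helicase on DNA, had medians of 0.00012 and 0.18, and 13 were held. Mcm5 had 630.2 and 774.8 against 674.3 and 967.7 CPM. Orc6, a subunit of the origin recognition complex, went the other way, with 275.0 and 251.9 CPM at 10000 and 176.6 and 228.9 CPM at 20000 cells (unadjusted p 0.0023). Pfkl and Orc6 are named after their values were seen. Of 19 mitosis genes 18 were held, with medians of -0.095 and 0.068.

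Among the 22 lists with at least 10 tested genes, the 20 cholesterol synthesis genes had the highest median of the fitted log2 fold change (0.13), with medians of 0.083 and 0.11 in the experiments, 6 higher and 2 lower in both, and 10 held. Fdps had 163.9 and 142.5 CPM at 10000 and 157.3 and 171.3 CPM at 20000 cells, and Sqle had 78.3 and 51.1 against 84.2 and 59.9 CPM. None of the 20 had an unadjusted p under 0.05.

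The next 5 lists hold transcripts that respond to handling or stress. The 14 immediate early genes, induced within minutes by stress or serum, had medians of 0.089 and -0.0060, with 3 higher and 2 lower in both experiments. Klf2 had 405.3 and 476.5 CPM at 10000 and 401.5 and 543.9 CPM at 20000 cells, and Ier2 had 110.1 and 127.9 against 88.7 and 167.4 CPM. The 14 heat shock genes had medians of 0.0095 and 0.060, with 6 higher and 3 lower in both experiments and 11 held, and Hsp90ab1 had 5453 and 6140 against 5455 and 6727 CPM. The 13 genes of the amino acid and endoplasmic reticulum stress list had medians of -0.021 and 0.18, with 6 higher and 1 lower in both. Of these Ddit4 and Herpud1, named after their values were seen, were higher at unadjusted p under 0.05, while Atf4, the central factor of the response, had 629.7 and 565.7 against 623.4 and 590.8 CPM. The 13 tested p53 targets had medians of 0.0059 and 0.12, with 5 higher and 2 lower in both. The 11 hypoxia genes had medians of -0.038 and -0.053, with 1 higher and 4 lower in both, and 1 of them, P4ha1, was higher at unadjusted p under 0.05 (p 0.0121). No member of these 5 lists passed the adjusted test, and the 3 at unadjusted p under 0.05 stand beside shares of 2.13% higher and 2.39% lower over all genes.

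Lists chosen for the fate or the end of the RNA had medians of at most 0.13 on either side of 0. The 10 polyadenylated histone variant genes had medians of -0.13 and -0.078, with 0 higher and 4 lower in both experiments and 9 held. H2az2 had 590.6 and 636.8 CPM at 10000 and 571.4 and 542.2 CPM at 20000 cells. The replication-dependent histone genes, whose mRNAs mostly lack a poly(A) tail, were rare: 28 of 67 were tested, their sum was 58.8 to 67.3 CPM in the 4 libraries, and 0 of 28 were held. The 12 tested nuclear noncoding RNAs had medians of 0.064 and 0.13. Malat1, a lncRNA of nuclear speckles, had 35.1 and 32.7 CPM at 10000 and 28.4 and 25.3 CPM at 20000 cells, and 11.6 CPM at 5000 cells, while Firre, which contacts several chromosomes, had 9.40 and 14.5 against 17.2 and 16.6 CPM. Both had an unadjusted p under 0.05, in opposite directions. Of 324 tested genes of the KRAB zinc finger and Zfp list, whose mRNAs are often short-lived, 67 were higher and 93 lower in both experiments, with medians of -0.020 and -0.059 and 59 held.

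Reference genes in common use were held in 12 of 13 cases, with a median level of 133.3 CPM, at which nearly all genes were held, and with medians of -0.083 and 0.034. Actb, the cytoskeletal actin, had 815.4 and 1113 CPM at 10000 and 810.6 and 1181 CPM at 20000 cells, so that the experiments differed and the inputs did not beyond 0.055 on the log2 scale. Rpl13a had 4924 and 4664 against 4668 and 4661 CPM, and Ppia had 1556 and 1776 against 1386 and 1729 CPM. Tbp, the TATA-binding protein and named after its values were seen, had 14.5 and 23.7 against 24.5 and 29.1 CPM, with an unadjusted p of 0.0114.

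Features outside the mRNA counts are given as a description, since all but 4 of the genes at unadjusted p under 0.05 did not pass the adjusted test and differences between the sets were not tested. Over the 6541 genes of at least 10 CPM, a deposited ATAC peak lay within 1000 bp of the start in all 4 libraries of 10000 and 20000 cells for 54.8%. The share was 53.5% of the 172 genes higher at unadjusted p under 0.05, 60.5% of the 167 genes lower and 55.8% of the 4941 genes held. The median span of these sets was 18.7, 17.7, 17.1 and 17.3 kb, and the median level 35.8, 35.1, 33.3 and 50.4 CPM. A check of the GC content of promoters is void, since a RefSeq promoter was matched for 132 of the 167 lower genes, under the 80% set for such a check.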

How the data were processed

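Polyadenylated RNA of mouse E14 embryonic stem cells was sequenced in 5 low-input libraries, and the 4 from 10000 and 20000 cells were compared. The authors deposited whole-number counts per gene in 1 table with mm10 coordinates, per the file headers. Per the submitters' processing notes, the tools of the series were cutadapt, Bowtie2 2.1.0, SAMtools 1.3.1, Picard, bedtools 2.24.0, MACS2 2.1.1, STAR 2.5 and featureCounts of Subread 1.5.0-p1, with no role or order named. Whether counting was stranded, and what became of multi-mapping reads, is not given in the sources used here, so overlapping genes and genes with near-identical copies are uncertain. ATAC intervals deposited by the authors, 1 list per library, served only to ask whether a peak lay within 1000 bp of a gene's start, taken as the 5' end in the table.

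CPM were computed here as counts over the library's total. Log2 ratios used TMM-scaled CPM and a pseudocount of 0.5, which understates the change of low genes. Genes were tested with edgeR 4.0.16 (R 4.3.3; TMM, filterByExpr, glmQLFit, glmQLFTest) with the experiment as a block and Benjamini-Hochberg adjustment at 0.05. Experiments were done on different days per the series' design text, so the number pairs libraries. As a check, the log2 ratio of experiment 2 to 1 was compared across inputs (r = 0.506 over 12523 genes), and the biological coefficient of variation was 17.5% with the block and 32.0% without. Nothing says that libraries came from separate cultures, so p-values measure the spread between these samples, which may be technical. The chi-square per gene between any 2 libraries was at least 10.1, so no pair counted as 1 library. Limits of 3 counts cover counting error only.

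Classes and promoters came from RefSeq (GRCm38.p6), matched by gene ID for 24463 of 24470 genes, with 67% of start positions equal. List symbols absent from the table were looked up among RefSeq synonyms, as for the histone genes. Named genes were all called genes (up to 10 a direction), the 8 with the smallest p in each direction among genes of at least 10 CPM with equal signs, the 8 whose interval reached least far from 0, the 4 with the largest gap between experiments, up to 4 members of a list by mean CPM and up to 3 of a length or class group. Others are said to be named after their values were seen. The genes, lists and tests were chosen with earlier results of these data known. Steps were tested on simulated counts. Alternatives were no block, library size alone, RLE size factors, DESeq2 1.42.0, limma 3.58.1 voom, other filters, pseudocounts and fold bounds, each library left out, each experiment alone, and, added after seeing the data, a robust prior and a bound of 1.5-fold on both ratios.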

Additional observations from a re-analysis of the deposited data

Results flagged for a closer look

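Among the named genes, Tcfl5 and Sesn2 moved at least 1.5-fold in each experiment, in opposite directions. P4ha1 and Clk4, which also have a large gap, moved by less than 1.5-fold in experiment 2. For Tcfl5 the log2 ratio of 20000 to 10000 cells was -1.07 in experiment 1 and 0.79 in experiment 2. For Sesn2 it was -0.91 and 0.63. With 1 pair per experiment the difference between the experiments was not tested, and both genes were chosen for their gap. In experiment 1 both were highest at 10000 cells, at 27.1 CPM for Tcfl5 and 41.3 CPM for Sesn2, and the library from 5000 cells of experiment 2 held 11.4 and 16.9 CPM.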

How the results depend on the processing

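The number of genes called, 4 in the paired edgeR fit, was 2 in DESeq2, 7 in limma voom and 14 on the genes of at least 10 CPM. It was 4 with RLE size factors (the same genes) and without a filter (3 of the same, with ND5 for Lcmt2; prior degrees of freedom infinite, as at 10 CPM or more), and 5 with a robust prior (ND5 added). It was 0 in edgeR with library size alone (472 at unadjusted p under 0.05), 0 with no replicate block, which removes the pairing of the libraries (101), and 0 to 0 with each library left out in turn, without a block (91 to 531). With a library left out, the lone library of a group is assumed to vary like the others. The 4 genes were lower under every one of these settings, with log2 fold changes from -1.68 to -0.98 for ATP8, -0.89 to -0.48 for Rwdd1, -1.21 to -0.36 for Eif3j1 and -0.84 to -0.46 for Lcmt2. Their adjusted p ran from 5.09e-09 for ATP8 to 1.

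The number of genes held, 4985, was 846 at the narrower fold bound tried, 7998 at 2-fold and 1820 without the block, and 4978 and 4716 under RLE and library size. With a bound on both ratios in place of the interval, a measure added after seeing the data, it was 9032 genes, of which 4944 were also held. The SD of the ratio from 10 to 100 CPM stayed between 0.26 and 0.29. The median of genes of 100 kb or more minus that of genes under 2 kb, -0.003 as the mean of both experiments, was 0.007 in experiment 1 alone, -0.012 in experiment 2, 0.023 at 10 CPM or more and 0.003 at 1 CPM or more. The median of lncRNA minus that of protein-coding genes, -0.057, was 0.056 in experiment 1 alone and -0.17 in experiment 2. For lists, experiment 1 alone and experiment 2 alone gave medians, taken relative to all genes, of 0.013 and -0.132 (ribosomal protein genes), 0.049 and -0.125 (nuclear respiratory chain), 0.065 and -0.288 (small RNA hosts), -0.005 and 0.171 (replication licensing) and -0.035 and 0.021 (pluripotency factors), each changing sign in 1 of them. The causes were not tested. Exonic length was not run, since the table used here gives only spans. At 3 counts a library, levels under 0.147 to 0.219 CPM cannot be told from 0, and 2 pairs of libraries limit what single genes can show.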
